A study of Mus musculus with 8 samples.

Results

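The *Serpina3* gene cluster of the mouse was examined through 8 protein-coding genes, *Serpina3c*, *Serpina3f*, *Serpina3g*, *Serpina3i*, *Serpina3j*, *Serpina3k*, *Serpina3m*, and *Serpina3n*, which were taken by symbol from the 48709 genes with an expression value in pancreatic RNA-Seq. Whole pancreas of 8-week-old male mice was compared 24 hours after induction in 4 groups of 2 libraries each, WT saline, cKO saline, WT FAEE-SAP, and cKO FAEE-SAP. FAEE-SAP stands for fatty acid ethyl ester severe acute pancreatitis, induced by i.p. palmitoleic acid (POA) together with ethanol, with saline given first and buprenorphine as analgesic. Mice of the control groups received saline, and all mice were fasted beforehand. The cKO mice were *Pfkfb3* fl/fl; *Pdx1*-Cre, so that deletion of the floxed exons of *Pfkfb3*, a regulator of glycolysis, depends on the *Pdx1* promoter and is limited to cells with a history of its activity in the pancreas. WT mice came from a commercial supplier and are not described as Cre-negative littermates, so that floxed alleles, Cre, and origin cannot be told apart from the deletion. The comparison asks how loss of *Pfkfb3* in the pancreas changes the transcriptional response to FAEE-SAP.

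Serpins are protease inhibitors that present an exposed reactive loop as bait. The target protease cuts the loop, and the serpin then changes shape and traps the protease in a covalent complex. Clade A member 3 is a single gene in humans, *SERPINA3*, which encodes the acute-phase plasma protein α-1-antichymotrypsin, whereas in the mouse this locus has expanded into a family of tandem copies. *Serpina3n* is the copy most often described as the counterpart of the human gene and is induced by inflammatory cytokines and glucocorticoids in liver, brain, and other tissues. *Serpina3k* is known as a major product of the liver, and *Serpina3g* (Spi2A) is an intracellular inhibitor of cathepsins in leukocytes.

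The files held 14 genes and pseudogenes of the cluster, which spans 302 kb of chromosome 12 from 104112724 to 104414329 in GRCm38 (GENCODE vM21 annotation). *Serpina3c* lies on the minus strand from 104146382 to 104153870, and the other 7 members lie on the plus strand. *Serpina3f* (104214544 to 104221129), *Serpina3g* (104236245 to 104241939), *Serpina3i* (104263122 to 104269372), and *Serpina3j* (104314553 to 104320725) follow in that order. *Serpina3k* (104338486 to 104346144) and *Serpina3m* (104338486 to 104394257) overlap, since a transcript of *Serpina3m* is annotated from the start of *Serpina3k*. *Serpina3n* (104406729 to 104414329) closes the cluster.

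The copies differ more in the loop that meets the protease than in the rest of the coding sequence. Each sequence shown here is a 90-base stretch of the coding strand that begins before the hinge of the reactive loop, with the 4 codons of the hinge motif in capitals. They are the copies on which the expression results turn, *Serpina3n*, *Serpina3m*, and *Serpina3k*, together with *Serpina3g* for contrast.
Serpina3n: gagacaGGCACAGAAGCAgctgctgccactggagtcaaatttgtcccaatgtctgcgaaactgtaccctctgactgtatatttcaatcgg
Serpina3m: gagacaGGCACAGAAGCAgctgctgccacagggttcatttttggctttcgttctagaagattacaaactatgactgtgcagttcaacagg
Serpina3k: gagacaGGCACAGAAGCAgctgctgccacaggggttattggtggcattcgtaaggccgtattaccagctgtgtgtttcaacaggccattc
Serpina3g: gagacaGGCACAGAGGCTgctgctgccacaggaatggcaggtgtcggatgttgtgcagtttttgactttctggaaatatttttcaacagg

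The start of the loop was shared by these copies, whereas the stretch downstream of the hinge, where the protease cuts, had diverged. The hinge motif was found once in 7 of the 8 coding sequences, and *Serpina3c* had no match. Over the coding sequences of 1 transcript per gene, the 28 pairs of members were 69.7% to 91.4% identical, with a median of 82.8%. Within the aligned loop window identity was 46.7% to 81.5%, with a median of 65.5%, against a median of 85.2% outside it. Identity was lower inside the loop than outside in 28 of 28 pairs, which share genes and are not independent. *Serpina3k* and *Serpina3m* were the closest pair, with 91.4% of aligned coding bases identical, but only 72.6% in the loop. *Serpina3n* was 85.2% identical to *Serpina3m* in the coding sequence and 70.0% in the loop. The coding sequence used for *Serpina3g* was the shortest, with 248 codons against 408 to 445 in the others.

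**Figure D1:**
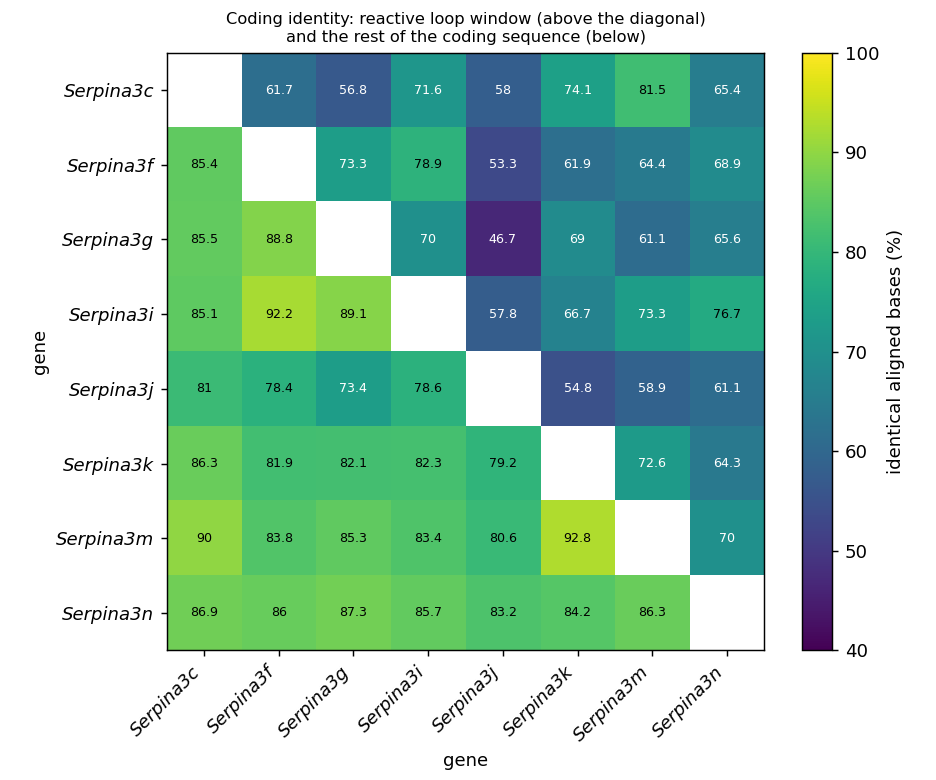
Identity of aligned coding bases (percent, color scale from 40 to 100) for the 28 pairs of the 8 *Serpina3* genes, in the window of the reactive loop above the diagonal and in the rest of the coding sequence below it. The loop values are lower, with a median of 65.5% against 85.2%.

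Because reads of such copies can be misplaced, the stretches that members share with any other gene were counted in the annotated transcripts. Of all 50-base windows, 3.13% in *Serpina3j* to 19.1% in *Serpina3m* also occurred in another gene, and 6.90% did so in *Serpina3n*. In *Serpina3m*, 16% of the 50-base windows were shared with *Serpina3k*. Of 100-base windows, 0.204% were shared in *Serpina3n*, 6.09% in *Serpina3m*, and 4.85% in *Serpina3k*. At 150 bases the only shared windows were those between *Serpina3k* (0.262%) and *Serpina3m* (0.331%). The read length and the handling of reads that fit several genes are not given in the sources used here, so values of *Serpina3k* and *Serpina3m* are uncertain with respect to each other.

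The deposited values are RPKM, reads per kilobase of exon scaled to library size, and the totals worked out from them were 22.9 to 37.8 M reads per library. RPKM were divided by a median-of-ratios factor per library, which makes the typical gene equal between libraries, and levels below are scaled RPKM over all 8 libraries unless stated otherwise. The factors were 0.618 to 0.862 with saline. With FAEE-SAP they were 1.93 and 2.01 in WT, against 0.971 and 1.04 in cKO. As deposited, the median gene was therefore higher by 1.24 on the log2 scale in WT FAEE-SAP than in WT saline, and the log2 change of the median gene in cKO against WT with FAEE-SAP was -0.91. *Pfkfb3* itself was 1.71 and 1.70 scaled RPKM in WT saline and 0.885 and 2.11 in cKO saline. After FAEE-SAP it was 1.86 and 3.23 in WT, against 1.74 and 2.84 in cKO. These gene-level values overlapped between genotypes and do not check the deletion, so WT and cKO are the labels of the libraries throughout. A gene was called in a comparison at a Benjamini-Hochberg adjusted p under 0.05 from limma over all genes tested and a change of at least 2-fold, and genes under an RPKM of 0.5 in all but 1 library of the comparison were not tested. With 2 libraries per group, an exact permutation test cannot give a p below 0.33. P-values from the model rest on the spread between these libraries together with a variance borrowed from other genes of similar level.

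*Serpina3n* was the most abundant member in each of the 8 libraries. It measured 8.37 and 5.33 scaled RPKM in the WT saline libraries, from 355 and 259 reads. In cKO saline it was 2.39 and 9.75, from 115 and 418 reads. In WT FAEE-SAP it reached 100.2 and 139.2, from 9550 and 18120 reads. In cKO FAEE-SAP it was 23.7 and 25.0, from 1404 and 1551 reads. The WT FAEE-SAP libraries stood above all others, the cKO FAEE-SAP libraries lay between them and saline, and the saline groups overlapped. With saline, means were 6.85 ± 2.15 in WT and 6.07 ± 5.20 in cKO. With FAEE-SAP they were 119.7 ± 27.6 in WT and 24.4 ± 0.967 in cKO (SD, n = 2).

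*Serpina3m* was close to the detection limit with saline and became the second most abundant member in WT FAEE-SAP. It measured 0.226 and 0.0494 scaled RPKM in WT saline, from 8 and 2 reads, and 0.0748 and 0.392 in cKO saline, from 3 and 14 reads. In WT FAEE-SAP it was 10.3 and 15.7, from 819 and 1704 reads. In cKO FAEE-SAP it was 0.749 and 1.07, from 37 and 55 reads. Again the 4 FAEE-SAP libraries were above the 4 saline libraries, and WT was above cKO without overlap. Group means with FAEE-SAP were 13.0 ± 3.82 in WT and 0.908 ± 0.224 in cKO (SD, n = 2).

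*Serpina3k* measured 0.378 and 0 scaled RPKM in WT saline and 0.333 and 0.117 in cKO saline, from at most 16 reads per library, and the 0 reads of 1 library allow up to 3. It was 0.853 and 1.82 in WT FAEE-SAP, from 81 and 236 reads, against 0.135 and 0.470 in cKO FAEE-SAP, from 8 and 29 reads. Only the WT FAEE-SAP libraries stood apart, while cKO FAEE-SAP overlapped with saline. The values of *Serpina3k* amounted to 8.27% and 11.6% of those of its neighbor *Serpina3m* in WT FAEE-SAP. In cKO FAEE-SAP the percentages were 18.1% and 44.1%, and with saline 0% to 446%, on few reads of both genes. The part of misplaced reads in *Serpina3k* was not tested.

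*Serpina3g* was the second most abundant member in the 4 saline libraries and did not follow *Serpina3n*. It measured 1.16 and 2.60 scaled RPKM in WT saline and 1.22 and 1.74 in cKO saline. In the FAEE-SAP groups it was 2.63 and 1.47 in WT, against 2.63 and 1.47 in cKO, and the 8 values came from 50 to 256 reads. All 4 groups overlapped. *Serpina3f* measured 0.616 and 0.630 in WT saline and 0.131 and 0.504 in cKO saline. After FAEE-SAP the level was 0.577 and 0.360 in WT, against 0.593 and 0.509 in cKO, and the 8 values came from 7 to 61 reads. Its lowest value was in a cKO saline library, and the FAEE-SAP groups overlapped.

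*Serpina3c*, the copy on the minus strand, measured 0.506 and 0.345 scaled RPKM in WT saline and 0.0775 and 0.130 in cKO saline, from 23, 18, 4, and 6 reads. After FAEE-SAP, it was 0.382 and 0.717 in WT but 0.314 and 0.316 in cKO. The cKO saline libraries were the lowest of the 8. *Serpina3i* measured 0.165 and 0.271 in WT FAEE-SAP, from 17 and 38 reads, and at most 0.130 elsewhere, from 0 to 7 reads. *Serpina3j* had 4 and 3 reads in WT FAEE-SAP, 1 read in 1 WT saline library, and 0 reads in the other 5 libraries, each of which allows up to 3. These last 2 members were too low to be tested in any comparison.

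**Figure D2:**
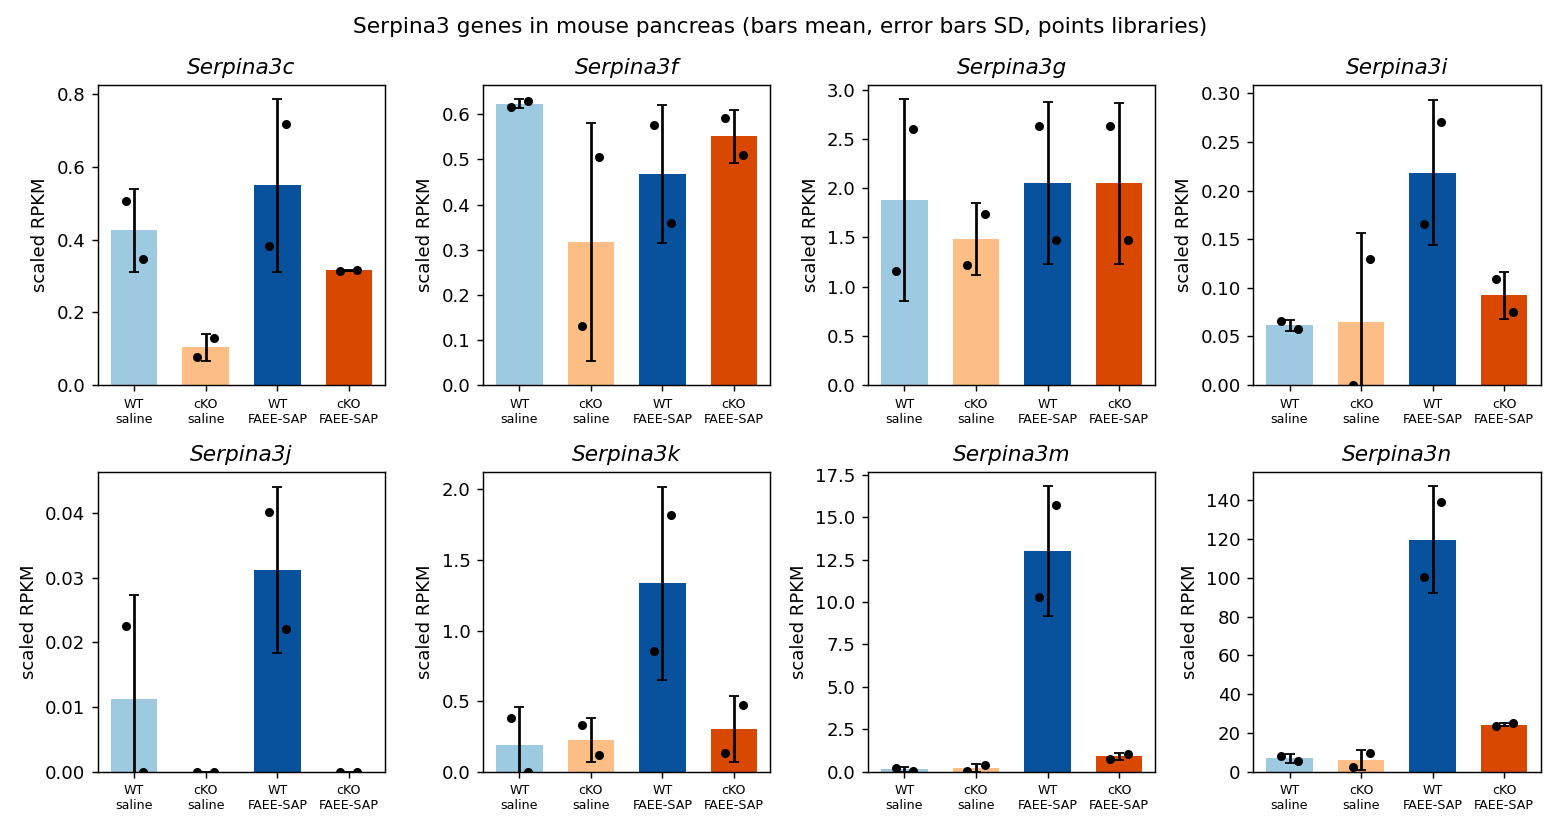
Scaled RPKM of the 8 *Serpina3* genes in 4 groups (bars, mean; error bars, SD; points, the 2 libraries), each panel with its own linear axis from 0. *Serpina3n* averaged 119.7 and *Serpina3m* 13.0 in WT FAEE-SAP against 24.4 and 0.908 in cKO FAEE-SAP, while *Serpina3g* averaged 2.05 in both.

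The makeup of the cluster's signal within a library does not depend on the scaling between libraries. *Serpina3n* made up 73.8% and 59.1% of the summed RPKM of the 8 genes in WT saline and 56.5% and 76.4% in cKO saline. In FAEE-SAP mice the share was 87.0% and 87.2% in WT, against 83.9% and 86.5% in cKO. The *Serpina3m* share was 0.548% to 3.07% with saline, 8.96% and 9.85% in WT FAEE-SAP, then 2.66% and 3.68% in the cKO FAEE-SAP libraries. *Serpina3g* held 10.2% to 28.9% with saline. With FAEE-SAP the share was 2.29% and 0.920% in WT, against 9.32% and 5.09% in cKO. Thus *Serpina3n* dominated in both FAEE-SAP groups, whereas the *Serpina3m* share was higher in both WT FAEE-SAP libraries than in any of the other 6. The ratio of *Serpina3n* to *Serpina3m* under FAEE-SAP was 9.71 and 8.86 in WT but 31.6 and 23.5 in cKO. With saline this ratio was 24.9 to 108, on few *Serpina3m* reads.

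**Figure D3:**
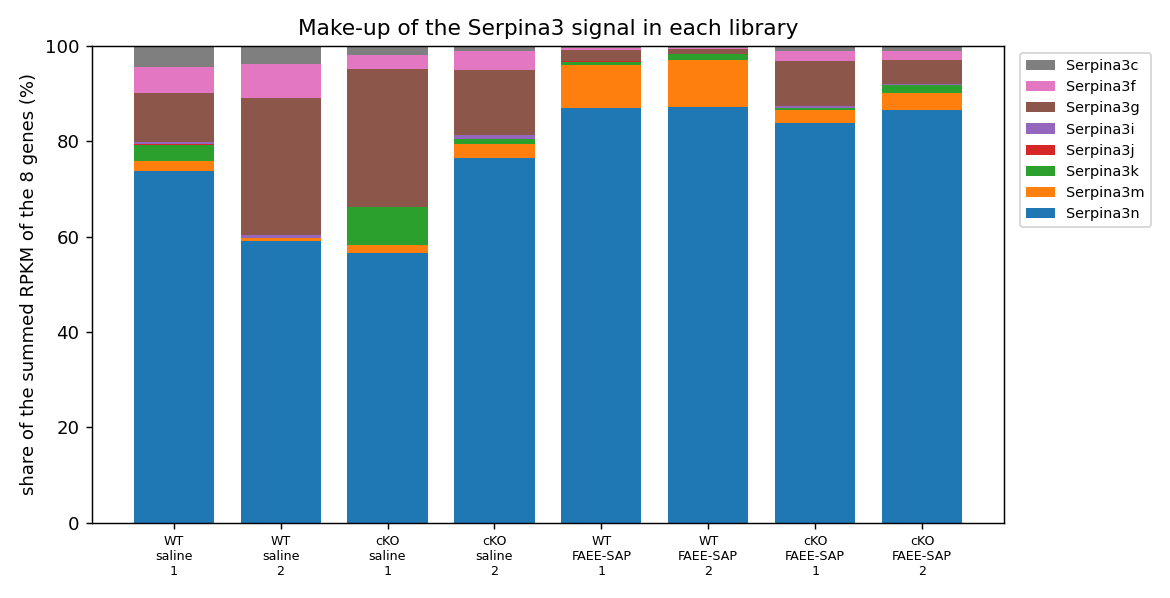
Share of each gene in the summed RPKM of the 8 *Serpina3* genes (percent, stacked bars) in each of the 8 libraries. *Serpina3n* fills 83.9% to 87.2% of the bar in the FAEE-SAP libraries, and the *Serpina3m* segment is widest in WT FAEE-SAP, at 8.96% and 9.85%.

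FAEE-SAP raised *Serpina3n* and *Serpina3m* in WT pancreas. Mean scaled RPKM of *Serpina3n* was 17.5-fold that of WT saline, with a log2 change of 4.12 (SE 0.28, Benjamini-Hochberg adjusted p = 0.00288 by limma). Mean *Serpina3m* was 94.4-fold that of saline, on 10 reads in the saline libraries together, with a log2 change of 6.0 (SE 0.46, Benjamini-Hochberg adjusted p = 0.00346 by limma). It was 6.78 without the first WT saline library and 5.41 without the second. Tested without the filter, *Serpina3m* had a log2 change of 6.05 (SE 0.48, Benjamini-Hochberg adjusted p = 0.0179 by limma). On the values as deposited, without the scaling, the mean was 44.1-fold that of saline for *Serpina3n* and 247-fold for *Serpina3m*. Of the 6 members tested 2 were called higher, where 3.08% of the 10894 genes tested were. *Serpina3m*, *Serpina3k*, and *Serpina3c* passed the filter only through the WT FAEE-SAP libraries, where their deposited values are high, so the filter in part sets this count and nothing is read from it. *Serpina3k* was higher in both WT FAEE-SAP libraries but was not called, at a log2 change of 2.79 (SE 0.84, Benjamini-Hochberg adjusted p = 0.10 by limma). Its value rested on the saline libraries, at 4.30 without the first of WT saline and 1.53 without the second. A fit with a library left out has 1 library in a group, so its spread comes from the other group alone. *Serpina3c*, *Serpina3g*, and *Serpina3f* had log2 changes of 0.28, 0.17, and -0.39 (SE 0.37, 0.45, and 0.30) and were not called. Without the first or without the second WT FAEE-SAP library *Serpina3m* reached the RPKM minimum in a single library and was not tested. On the values as deposited, where the median gene was itself higher, 5 members were called. The share of all genes called on those values is not given here, so nothing is read from that count.

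With FAEE-SAP, *Serpina3m* and *Serpina3n* were lower in cKO than in WT pancreas. *Serpina3m* had a log2 change of -3.74 (SE 0.31, Benjamini-Hochberg adjusted p = 0.0157 by limma), and its mean in WT was 14.3-fold that in cKO. *Serpina3n* had a log2 change of -2.29 (SE 0.22, Benjamini-Hochberg adjusted p = 0.0180 by limma), and its mean in WT was 4.91-fold that in cKO. As deposited the mean in WT was 28.1-fold that in cKO for *Serpina3m* and 9.60-fold for *Serpina3n*. Of the 6 members tested these 2 were called lower, where 0.409% of the 11008 genes tested were. Here *Serpina3k* and *Serpina3c* passed the filter only through the WT libraries, so the filter in part sets this count too and nothing is read from it. *Serpina3k* was lower in both cKO libraries without being called, at -1.99 (SE 0.57, Benjamini-Hochberg adjusted p = 0.163 by limma). Its value was -1.29 without the first cKO library and -2.75 without the second, and it was not called in either. *Serpina3c*, *Serpina3f*, and *Serpina3g* had log2 changes of -0.64, 0.22, and -0.01 (SE 0.36, 0.31, and 0.39) and were not called. With either WT library left out, which leaves 1 library in that group, neither *Serpina3m* nor *Serpina3n* was called, at log2 changes of -4.05 to -2.06. With all 8 libraries in 1 model *Serpina3n* was not called (-2.27, SE 0.57, Benjamini-Hochberg adjusted p = 0.0816 by limma), and with no filter on low values 0 members were called, at log2 changes of -3.81 for *Serpina3m* and -2.36 for *Serpina3n*.

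In the cKO, *Serpina3n* and *Serpina3m* were also higher in both FAEE-SAP libraries than in either saline library, but 0 of the 3 members tested were called. Over all genes, 5 of 9423 (0.0531%) were called, and 888 had an unadjusted p under 0.05. Mean *Serpina3n* was 4.01-fold that of cKO saline, with a log2 change of 2.33 (SE 0.66, unadjusted p = 0.0181, Benjamini-Hochberg adjusted p = 0.440 by limma). Mean *Serpina3m* was 3.89-fold that of cKO saline, with a log2 change of 1.69 (SE 0.52, unadjusted p = 0.0237, Benjamini-Hochberg adjusted p = 0.449 by limma). It passed the filter here only through the FAEE-SAP libraries, where it is high. *Serpina3g* had a log2 change of 0.43 (SE 0.35). The cKO saline libraries differed from each other about as much as this, as *Serpina3n* at 2.39 and 9.75 scaled RPKM shows. As deposited the mean was 6.18-fold that of saline for *Serpina3n* and 5.94-fold for *Serpina3m*. Without the first cKO saline library the log2 changes of *Serpina3n* and *Serpina3m* were 1.34 and 1.02, and without the second 3.32 and 2.42, none of them called.

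With saline, the 2 members that could be tested did not differ detectably between genotypes. *Serpina3n* had a log2 change of -0.47 (SE 0.68) and *Serpina3g* of -0.26 (SE 0.42) in cKO against WT, both at a Benjamini-Hochberg adjusted p of 0.999 by limma. By limma no gene was called among 8715 (0.0%), and 187 had an unadjusted p under 0.05. *Serpina3c* was too low to be tested there, although its 2 cKO libraries, with 4 and 6 reads, were below the WT libraries, with 23 and 18. Tested without the filter, it had a log2 change of -1.21 (SE 0.28, Benjamini-Hochberg adjusted p = 0.997 by limma).

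Whether the response to FAEE-SAP differed between genotypes was tested as an interaction over all 8 libraries, and 0 of the 6 members tested were called, where 8 of 11133 genes (0.0719%) were and 1398 had an unadjusted p under 0.05. *Serpina3k* and *Serpina3c* passed the filter here only through the WT FAEE-SAP libraries, where they are high. The filter in part sets this count too, and nothing is read from it. *Serpina3m* had the largest interaction of the members, -4.10 on the log2 scale (SE 0.79, unadjusted p = 0.00109, Benjamini-Hochberg adjusted p = 0.151 by limma). *Serpina3k* had -2.37 (SE 1.14, Benjamini-Hochberg adjusted p = 0.450 by limma), and *Serpina3n* -1.82 (SE 0.82, unadjusted p = 0.0593, Benjamini-Hochberg adjusted p = 0.422 by limma). The *Serpina3k* value moved to -3.57 without the first WT saline library and to -1.25 without the second. The *Serpina3n* value moved to -2.82 without the first cKO saline library and to -0.83 without the second, neither of them called. *Serpina3f*, *Serpina3c*, and *Serpina3g* had values of 1.17, 0.77, and 0.24 (SE 0.63, 0.49, and 0.65). The *Serpina3f* value moved to 0.48 without the first cKO saline library and to 1.89 without the second. The comparisons share libraries, so their values for a member are not independent. A pseudocount of 1, or the values as deposited, gave 1 called member, *Serpina3m*.

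**Figure D4:**
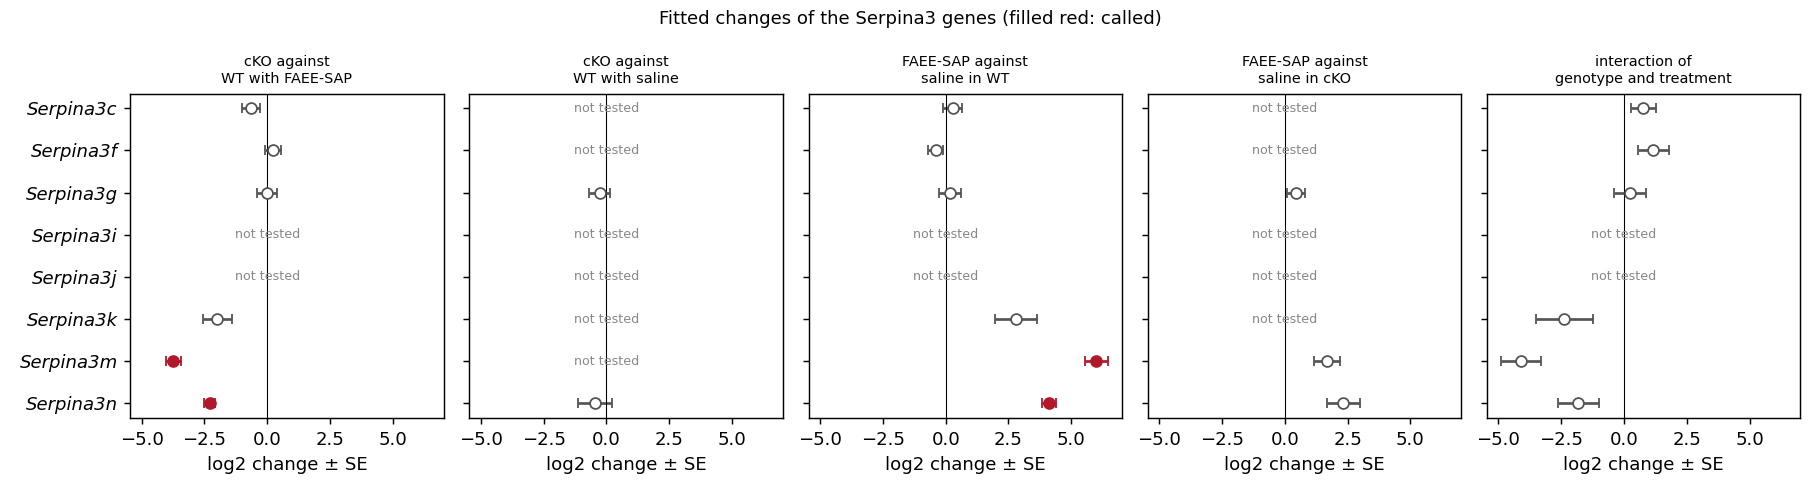
Log2 change (points) with SE (bars) of each *Serpina3* gene in the 4 pairwise comparisons and the interaction, with called genes in filled red and genes under the filter marked as not tested. *Serpina3m* and *Serpina3n* are called higher with FAEE-SAP in WT (6.0 and 4.12) and lower in cKO than in WT with FAEE-SAP (-3.74 and -2.29).

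Other genes of serpin biology were followed as lists. Of 18 other clade A serpins, among them the *Serpina1* copies that encode α-1-antitrypsin, 2 reached the filter with FAEE-SAP and 0 were called in any comparison. In WT with FAEE-SAP 3.08% of all genes tested were called higher and 3.86% lower, so nothing is read from 0 of 2. Of 20 serpins of other clades, 12 were tested with FAEE-SAP. *Serpini2*, a serpin of the exocrine pancreas, was called higher in cKO than in WT (log2 change 3.36, SE 0.21, Benjamini-Hochberg adjusted p = 0.0127 by limma), opposite in sign to *Serpina3m* and *Serpina3n*. In WT it was called lower with FAEE-SAP (-4.09). The median log2 change of the 12 serpins in cKO against WT was -0.11, against -0.01 over all genes tested.

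Among 22 proteases, 13 were tested. In cKO against WT with FAEE-SAP 6 were called higher (0.863% of all genes tested were) and 0 lower, with a median log2 change of 1.22, and *Ctrc*, which encodes chymotrypsin C, had the largest change of 2.49. In WT with FAEE-SAP against saline 9 were called lower (3.86% of all genes tested were) and 1 higher, with a median of -1.51. The largest changes between genotypes were in digestive protease genes of the pancreas, *Ctrc*, *Cela2a*, *Ctrl*, *Ctrb1*, and *Cela3b*. *Ctrb1*, *Cela1*, and *Prss2* are also on the list of acinar markers below, so the results of these lists are not independent.

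Of 20 genes of cytokine and glucocorticoid signaling, 17 were tested with FAEE-SAP. In WT 4 were called higher with FAEE-SAP, where 3.08% of all genes tested were, namely *Il1b* (3.52), *Socs3*, a feedback inhibitor of STAT3 signaling (3.26), *Stat3* (1.77), and *Cebpb* (1.32). With saline 13 of them reached the filter, and *Il1b*, at 0 and 0.111 scaled RPKM in WT saline against 1.36 and 1.32 with FAEE-SAP, passed it in WT only through the libraries where it is high, so nothing is read from this count. In cKO against WT 0 were called, with a median of -0.63. Of 25 other acute-phase genes 17 were tested, and 11 were called higher in WT with FAEE-SAP, against the same 3.08% of all genes, led by *Lcn2* (8.00) and *Saa2* (6.4), with a median of 3.15. In cKO against WT 6 were called lower, against 0.409% of all genes, among them the serum amyloid genes *Saa3* (-5.56), *Saa2* (-4.97), and *Saa1* (-3.55) and the fibrinogen gene *Fgg* (-3.97), with a median of -2.75. In cKO with FAEE-SAP against saline, *Lrg1* was called higher (5.66), and in the interaction *Saa3* was called (-6.17). Of the 25 genes, 11 reached the filter with saline and 12 among the cKO libraries, so some of the 17 were tested only because they are high in WT FAEE-SAP, among them *Fgg*. The filter therefore in part sets these counts and medians, and the list was put together with results of these data known, so nothing is read from it about the *Serpina3* genes.

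Markers of neutrophils and of acinar cells also changed with FAEE-SAP and between genotypes. In the duct, T and B cell, endothelial, and fibroblast marker lists 0 genes were called. The summed level of 6 neutrophil markers was 1.21 to 3.67 scaled RPKM with saline. Under FAEE-SAP the sum was 53.4 and 58.9 in WT, against 12.2 and 19.8 in cKO. By this sum WT FAEE-SAP was highest and cKO FAEE-SAP next, as for *Serpina3n*. In WT FAEE-SAP most of it came from *S100a9* (33.3 and 29.3) and *S100a8* (18.7 and 15.8). Under FAEE-SAP *Csf3r* did not follow this order, at 0.882 and 0.822 in WT against 1.06 and 0.563 in cKO. *Cxcr2* did, with less difference, at 0.817 and 0.796 in WT against 0.696 and 0.383 in cKO. In WT with FAEE-SAP 5 of the 6 were called higher, where 3.08% of all genes tested were, and in cKO against WT with FAEE-SAP 2 were called lower, where 0.409% were. With saline 1 of the 6 reached the filter, so most of them were tested through the FAEE-SAP libraries, and *Ly6g* was at 0 in the 4 saline libraries. The summed level of 8 acinar markers, which define the labeled tissue, was 212117 to 292858 with saline. With FAEE-SAP the sum was 72554 and 74567 in WT, against 175114 and 195340 in cKO. All 8 were called lower in WT with FAEE-SAP, where 3.86% of all genes tested were, and 6 were called higher in cKO than in WT with FAEE-SAP, where 0.863% were. In bulk tissue, fewer cells of a type and less RNA per cell cannot be told apart, and the part of either cell type in the *Serpina3* values was not tested. The 7 markers used of hepatocytes, the main source of plasma serpins, summed to 12.2 to 39.3 with saline, the highest in 1 cKO library. In that library *Fabp1* was 12.7 and *Apoa1* 10.5 scaled RPKM, against at most 0.154 and 0.157 in any other library. The cause was not tested. Under FAEE-SAP the sum of the 7 markers was 3.88 and 4.53 in WT against 7.19 and 10.4 in cKO. *Ttr*, the transthyretin gene, which islets also express, was the 1 hepatocyte marker called, lower in WT with FAEE-SAP and higher in cKO than in WT. *Ahsg*, which encodes the plasma protein fetuin-A, measured 0.198 and 0.0864 in the WT saline libraries against 0.426 and 0.710 in WT FAEE-SAP. In the cKO it measured 0.843 and 0.424 with saline against 0.260 and 0.497 with FAEE-SAP. *Alb*, the albumin gene, measured 0.0647 and 0 in WT with FAEE-SAP against 0.810 and 0.163 with saline, and in the cKO 0.238 and 0.0996 against 2.23 and 0.288 with saline. *Cyp2e1*, a cytochrome P450 gene, measured 3.11 and 1.90 in WT with FAEE-SAP against 5.12 and 8.44 with saline. *Ahsg* was the exception in WT, and each other hepatocyte marker used had a lower mean with FAEE-SAP than with saline. The part of hepatocyte RNA in the *Serpina3* values was not tested.

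Among 7401 genes with a mean of at least 1 scaled RPKM, those most like *Serpina3n* over the 8 libraries were *Osbpl9* (Pearson r = 0.982), *Arhgdia* (0.981), *Sap130* (0.977), *Psmd2* (0.976), and *Gsr* (0.976). Most like *Serpina3m* were *Tnfrsf1a*, a TNF receptor (0.987), *Med15* (0.986), *Elf3* (0.986), *Pgd* (0.985), and *Nsmce1* (0.985). *Serpina3n* and *Serpina3m* had r = 0.974 with each other. *Serpina3g* had r = 0.278 with *Serpina3n*, and *Serpina3f* had 0.321. These are descriptions of log2 values over 8 libraries that share treatment, scaling, and depth.

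Of the 8 members 6 had a promoter in the RefSeq table (GRCm38.p6), 250 bases before to 50 after the start, and *Serpina3k* and *Serpina3m* did not. *Serpina3n* and *Serpina3c*, at opposite ends of the cluster members, had the most similar promoters of different genes, with 93.5% of 294 aligned bases identical. They are shown because the genes differed in level, at 119.7 ± 27.6 scaled RPKM for *Serpina3n* and 0.549 ± 0.237 for *Serpina3c* in WT FAEE-SAP (SD, n = 2). The 250 bases before the start are given 5′ to 3′ on the strand of the gene, chr12:104406458-104406707 (plus) and chr12:104153873-104154122 (minus), with bases that differ or have no aligned partner in capitals.
Serpina3n: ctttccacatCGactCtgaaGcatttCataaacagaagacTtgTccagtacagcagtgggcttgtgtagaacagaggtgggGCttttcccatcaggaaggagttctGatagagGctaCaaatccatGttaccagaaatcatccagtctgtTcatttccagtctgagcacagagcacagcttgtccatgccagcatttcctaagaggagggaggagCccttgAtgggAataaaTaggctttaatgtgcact
Serpina3c: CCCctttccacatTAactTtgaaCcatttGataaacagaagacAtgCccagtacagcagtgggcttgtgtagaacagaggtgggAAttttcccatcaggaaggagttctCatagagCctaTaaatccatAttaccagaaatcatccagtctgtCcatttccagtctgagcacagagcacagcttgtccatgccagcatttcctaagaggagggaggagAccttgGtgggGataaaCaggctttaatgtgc

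Both windows held 1 match to TGTTCT, a core motif of the glucocorticoid receptor, read as its reverse complement at bases -183 to -178 of *Serpina3n* and -180 to -175 of *Serpina3c*. On either strand this motif was present in 5 of the 6 members with a promoter and in 19.0% of all 32851 promoters. The STAT motif TTCNNNGAA was present in *Serpina3f*, *Serpina3g*, and *Serpina3i*, and in 8.30% of all promoters. These letters were not in the *Serpina3n* window. A motif of NF-κB was present in *Serpina3g* and *Serpina3i* and in 8.46% of all promoters, TTGCNNAA (C/EBP) in *Serpina3f* and in 10.8%, and TGANTCA (AP-1) in 0 of the 6 and in 7.81%. TATAAA was present in *Serpina3c* and *Serpina3f* and in 13.6%, and in *Serpina3n* these letters were not found. Such matches describe the sequence and not binding.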

How the data were processed

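RNA-Seq of pancreas from 8 libraries in 4 groups was used. Per the study's methods, directional libraries were sequenced as paired ends, filtered with fastp, and mapped to GRCm38.p6 with CLC Genomics Workbench. The authors deposited RPKM for 48709 genes per library, and how RPKM were computed and how multiply mapping reads were assigned are not given in the sources used here. Library totals (22.9 to 37.8 M reads) and reads per gene were worked out from low values and GENCODE vM21 exonic lengths, for 46319 matched genes (95.1%). Between 84.1% and 85.6% of values under 20 reads were whole within 0.1, and the reads summed to 100.3% to 105.7% of the totals, so they are approximate. Whether reads or pairs were counted was not settled.

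RPKM were scaled by median of ratios within each comparison and tested as log2(scaled RPKM + 0.1) with limma 3.58.1 (R 4.3.3, trended prior) on all genes that reached an RPKM of 0.5 in 2 or more libraries, so that fold changes of low genes are understated. P-values were Benjamini-Hochberg adjusted over all genes tested, and the procedure was tested on simulated data. Coding sequences and promoters were aligned with MAFFT. The members and gene lists were chosen with earlier results of these data known. All 8 members are named, and of each list at most 5 called genes per comparison by size of change. For the 2 most abundant members the 5 genes with the highest correlation are named. Alternatives were other scalings, filters, pseudocounts, a prior without trend, all libraries in 1 model, a replicate block, voom on worked-out reads, and each library left out. A block that crosses the replicate numbers was added after seeing the data. The result for 1 gene of the list of serpins of other clades is not reported here.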

Additional observations from a re-analysis of the deposited data

How the results depend on the processing

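The share of all genes called in each alternative is not given here, so nothing is read from the counts that follow. With FAEE-SAP, 2 members were called between genotypes in the reported setting and 4 on values as deposited (*Serpina3c* and *Serpina3k* in addition). With all 8 libraries in 1 model 1 was called (*Serpina3m*), and with no filter, where many more genes were tested, 0 were. *Serpina3n* and *Serpina3m* kept their sign in all of these and with each library left out. In WT, 5 members were called on values as deposited, which lack the scaling for the higher median gene. In the interaction, 1 member was called on values as deposited and 1 with a pseudocount of 1. With saline and in the cKO, 0 members were called in each alternative run. As deposited, 12 of the 32 group means moved by more than 1 SD.

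Among the alternatives run, the sign changed only for values that were not called. As deposited, the log2 change of *Serpina3f* became -0.62 in cKO against WT with FAEE-SAP and 0.76 in WT with FAEE-SAP, and the interactions of *Serpina3c* and *Serpina3g* became -0.068 and -0.41. For *Serpina3g* in cKO against WT with FAEE-SAP, quantile normalization gave 0.028, a minimum RPKM of 2 gave 0.045, all libraries in 1 model gave 0.0039, and voom gave 0.016. With a library left out, the values in cKO against WT with FAEE-SAP ran from -0.080 to 0.49 for *Serpina3f* and from -0.43 to 0.38 for *Serpina3g*, and with saline from -0.84 to 0.29 for *Serpina3g* and from -1.46 to 0.51 for *Serpina3n*. In WT with FAEE-SAP against saline *Serpina3g* ran from -0.39 to 0.71, and its interaction from -0.31 to 0.79. The cause was not tested.

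Replicate numbers are not stated to pair mice, and same-numbered libraries had correlated deviations of 0.304 with FAEE-SAP, -0.319 with saline, -0.175 in WT, and 0.399 in the cKO over 11133 genes. With the replicate block, 3 members were called between genotypes with FAEE-SAP, *Serpina3k* in addition (-1.99, SE 0.26, Benjamini-Hochberg adjusted p = 0.0186 by limma), a member that passed the filter there only through WT FAEE-SAP, where it is high. With crossed numbers in WT, an alternative chosen after seeing the data, 3 were called, again with *Serpina3k* (adjusted p = 0.0349 by limma). Few reads limit *Serpina3i* and *Serpina3j*.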

Other observations

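Summed macrophage markers were 51.0 to 66.8 scaled RPKM with saline. With FAEE-SAP they were 59.1 and 85.2 in WT against 65.4 and 77.6 in cKO, and 1 of the 5, *Cd14*, was called higher in WT with FAEE-SAP (log2 change 3.39) and lower in cKO against WT (-2.37). T and B cell markers summed to 5.32 to 16.2 over the 8 libraries, endothelial markers to 9.20 to 14.9, and fibroblast markers to 46.8 to 59.1, with 0 called in these 3 lists. Duct markers summed to 5.38 to 8.42 with saline. With FAEE-SAP they were 12.04 and 12.6 in WT against 8.29 and 9.28 in cKO, with 0 called. Adipocyte markers ranged from 17.6 to 66.2, and *Fabp4* was called higher in WT with FAEE-SAP (1.21). Islet markers summed to 229.3 to 322.5 with saline. In FAEE-SAP mice these sums were 133.1 and 187.7 in WT against 353.4 and 366.6 in cKO. The islet hormone genes *Sst* (1.80) and *Gcg* (1.68) were called higher in cKO than in WT with FAEE-SAP, and lower in WT with FAEE-SAP than with saline.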
